A study of Homo sapiens with 9 samples.

Results

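The respiratory chain and ATP synthase subunits were represented by 108 probe sets, which carry 75 gene symbols. They were chosen by name alone: a probe set was taken if the array annotation gave it exactly 1 symbol and that symbol began as the complex I, III, IV or V subunit families do (NDUFA, NDUFB, NDUFC, NDUFS, NDUFV, UQCR, COX4 to COX8, ATP5) or was SDHA, SDHB, SDHC, SDHD, CYC1 or CYCS. The array held 22215 probe sets that are not controls, and those with 1 symbol named 11963 genes. Complex I had 35 probe sets for 28 genes, complex II 7 for 3 genes, complex III 10 for 7 genes, cytochrome c 1, complex IV 20 for 13 genes and complex V 27 for 15 genes. The name pattern also took 5 complex I assembly factors (NDUFAF1, NDUFAF3, NDUFAF4, NDUFAF5 and NDUFAF7), the ATP synthase inhibitor ATP5IF1, the pseudogene ATP5MC2P1 and the antisense transcript NDUFB2-AS1, which are given apart. SDHB, NDUFA4, NDUFA4L2, COX4I2, COX6B2 and COX8C had no probe set with that symbol alone and were not analysed here.

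All 9 arrays came from HepG2, an established human hepatoma line used as a model of liver cells, so they describe 1 tumour line and not normal hepatocytes. The cells were moved at 60 to 70% confluence into medium whose serum had been stripped of thyroid hormone, and this applies to the control as well. They then received vehicle, 10 nM of the natural hormone T3 (triiodothyronine), or 10 nM GC-1, with 3 arrays a group, and RNA was taken at 24 h. GC-1 is a synthetic thyroid hormone analogue that favours the beta form of the receptor. It carries no iodine: carbon groups stand in the places of the iodine atoms of T3, and a carbon bridge in place of the oxygen that joins the rings. No label says whether the 3 arrays of a group came from separate cultures, so the p-values measure the spread between these arrays, which may be technical.

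The arrays had medians between 7.02 and 7.06 log2 units. T3 replicates 1 and 2 stood apart from the rest, with interquartile ranges of 2.99 and 2.97 against 2.83 to 2.88 on the other 7 arrays, and T3 replicate 3 lay with the GC-1 arrays rather than with them on the second principal component. The receptor target genes KLF9 and CPT1A rose in both treated groups, KLF9 by 1.17 log2 units with T3 and 1.13 with GC-1 and CPT1A by 1.31 and 1.08, with limma adjusted p between 3.18e-07 and 0.000105. All 9 hepatocyte markers listed were bright (12.06 to 14.44), and 2 of them rose with T3, FGB and APOB, and FGB with GC-1. Their mean signal was 13.56 to 13.59 on the vehicle arrays and 13.69 to 13.75 on the treated arrays, and its part in the results below was not tested. Of 13 markers of other cell types 11 were measured, 4 of them below a signal of 6, and their mean signal per array ran from 6.85 to 6.98. KRT19, a bile duct keratin, fell in both groups (by 0.25 with T3 and 0.28 with GC-1), and its part in the results below was not tested.

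The respiratory chain sits in the inner mitochondrial membrane. Complex I takes electrons from NADH and complex II from succinate, complex III passes them to the small carrier cytochrome c, and complex IV hands them to oxygen. Complexes I, III and IV pump protons, and complex V, the ATP synthase, lets the protons back and makes ATP. Most subunits are encoded in the nucleus, and the catalytic cores also need subunits encoded in the mitochondrial genome, none of which had a named probe set here. Thyroid hormone has long been known to raise oxygen use in liver, and the transcription factors NRF1, the ETS family factor GABP and YY1 are known regulators of nuclear genes for the chain.

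The promoters of 4 genes with a probe set past the threshold in any comparison are shown because they carry the motifs searched. They are RefSeq sequences on build GRCh38.p14, 280 bases each, 250 before the annotated start and 30 after, written 5′ to 3′ on the strand of the gene, with matches in capitals and positions counted from 1 at the left. NDUFA2 lies on the minus strand at chr5:140647601-140647880 and holds the receptor core motif AGGTCA in reverse at position 139. NDUFA7 lies on the minus strand at chr19:8321346-8321625 and holds the YY1 core AAGATGGC at position 265, just after the start. ATP5F1C lies on the plus strand at chr10:7787927-7788206 and holds the NRF1 core GCGCATGCG on both strands, at the overlapping positions 229 and 230. ATP5MC2 lies on the minus strand at chr12:53676054-53676333 and holds that core at position 210.
NDUFA2: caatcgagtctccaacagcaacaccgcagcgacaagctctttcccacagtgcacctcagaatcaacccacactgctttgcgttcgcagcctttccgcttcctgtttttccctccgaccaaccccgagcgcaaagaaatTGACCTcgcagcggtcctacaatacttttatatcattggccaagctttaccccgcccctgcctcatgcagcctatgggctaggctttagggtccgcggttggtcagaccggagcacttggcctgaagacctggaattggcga
NDUFA7: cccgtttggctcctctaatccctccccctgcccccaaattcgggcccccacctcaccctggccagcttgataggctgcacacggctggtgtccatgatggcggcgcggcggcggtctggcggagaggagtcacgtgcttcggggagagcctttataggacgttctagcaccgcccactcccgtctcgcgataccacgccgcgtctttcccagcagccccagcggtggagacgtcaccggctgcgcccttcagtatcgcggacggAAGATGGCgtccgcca
ATP5F1C: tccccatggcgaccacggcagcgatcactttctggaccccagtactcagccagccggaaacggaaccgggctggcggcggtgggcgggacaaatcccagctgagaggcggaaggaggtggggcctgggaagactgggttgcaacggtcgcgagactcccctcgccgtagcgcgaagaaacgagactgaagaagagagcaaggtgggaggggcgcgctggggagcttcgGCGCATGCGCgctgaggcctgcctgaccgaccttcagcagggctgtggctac
ATP5MC2: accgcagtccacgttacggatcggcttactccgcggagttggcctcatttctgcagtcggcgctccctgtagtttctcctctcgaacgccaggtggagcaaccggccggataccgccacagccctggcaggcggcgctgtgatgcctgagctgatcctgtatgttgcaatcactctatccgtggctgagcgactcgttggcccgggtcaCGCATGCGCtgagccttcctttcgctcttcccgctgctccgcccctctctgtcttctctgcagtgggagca

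Promoter windows were found for 64 of the 73 subunit, inhibitor and assembly factor genes, and each was searched over 300 bases on both strands. The NRF1 core was in 11 windows (17.2%), against 2.10% of all 27305 windows and 2.76% of the 15842 windows of protein-coding genes. The YY1 core was in 10 (15.6%, against 3.03% of all) and the ETS core CCGGAAGT in 8 (12.5%, against 4.44%). The receptor core AGGTCA was in 16 (25%, against 13.9%), and the direct repeat of that core spaced by 4, the classical thyroid hormone element, was in 0, against 0.0183% of all. The median T3 difference was 0.062 log2 units in the 11 genes with the NRF1 core and 0.040 in the 53 without it. It was 0.090 in the 10 genes with the YY1 core and 0.041 in the 54 without. For the ETS core it was 0.067 in the 8 genes with it and 0.046 in the 56 without. For the receptor core it was 0.029 in the 16 genes with it and 0.052 in the 48 without. NDUFAF4 matched none of the motifs in its window.

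With T3 the subunit genes moved little. Of the 108 probe sets 4 passed the limma threshold, an adjusted p under 0.05 over all probe sets, which is 3.70%, against 5.50% of all 22215. NDUFA2, NDUFA7 and CYC1 rose (3 of 108, against 4.00% of all probe sets higher), and 1 dim probe set of ATP5MC2 fell (against 1.50% lower). After quantile normalization 3 of 108 passed (2.78%, against 5.64% of all). NDUFA2 was the 1 higher, and the 2 lower were ATP5MC2 and NDUFAF4. The median T3 difference was 0.034 log2 units over the 108 probe sets and -0.015 over all probe sets. It was 0.0033 over the 1227 other probe sets at least as bright as the median of these, whose signals lie high on the array's scale (median 10.98). Of those 1227, 99 passed higher and 19 lower with T3. The T3 difference was above 0 in 71 of the 108 (65.7%, against 44.5% of all and 52% of the 1227). This lean upward is a count of signs and was not tested. All 3 T3 arrays lay above all 3 vehicle arrays in 28 probe sets (25.9%, against 12.5% of all) and below them in 9 (8.33%, against 12.4%), and these became 23 and 12 after quantile normalization (21.3% and 11.1%, against 11.9% and 13.5% of all) and 26 and 2 after centring on housekeeping genes (24.1% and 1.85%, against 14.5% and 5.79%). Before either rescaling, 290 of the 1227 bright ones lay wholly above vehicle with T3 and 241 wholly below. With 3 arrays against 3, an exact two-sided permutation test of 1 probe set cannot go below p = 0.1.

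The lean did not have the same size on each T3 array. Measured against the vehicle mean, the median of the 108 probe sets was 0.033, 0.0075 and 0.083 log2 units on T3 replicates 1 to 3, and 0.023, -0.0007 and -0.020 on the vehicle arrays. The highest value was thus that of T3 replicate 3, while replicates 1 and 2, which have the wide signal range, lay closer to vehicle. Replicate 2 lay inside the range of the vehicle arrays, so the groups overlapped in this median. The pooled within-group SD of these array medians was 0.0264. With T3 replicate 3 left out, the median T3 difference was 0.019, and with replicates 1 and 2 left out it was 0.083. How many probe sets passed also depended on how limma pooled the spread: with the prior spread allowed to follow brightness and resist outliers, 18 of 108 passed (16.7%, against 8.81% of all), 15 higher and 3 lower. The added ones included COX5A, UQCRC1, NDUFC1, NDUFS4, 2 probe sets of NDUFB8 and 3 of COX5B, all higher, and CYCS, lower.

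With GC-1, 1 of the 108 passed (0.926%, against 2.80% of all probe sets), the assembly factor NDUFAF4, which fell. No probe set rose past the threshold in limma (0 of 108, against 1.81% of all), and the 1 that fell compares with 0.986% of all. With the trended robust prior 1 of 108 passed (0.926%, against 6.06% of all). An unadjusted limma p under 0.05 was found for 5 of 108 (against 15.9% of all), 3 of them higher (against 7.0%). At an unadjusted p under 0.05 the GC-1 against T3 comparison held 19 of 108 (17.6%, against 14.1% of all), and after adjustment it held 0, as it did over all probe sets (0%). The median GC-1 difference from vehicle was -0.012 over the 108 and -0.0043 over all probe sets, and it was above 0 in 49 of 108 (45.4%, against 48.1%). That median had no settled direction: it was 0.003 after quantile normalization, with 56 above 0 (51.9%, against 48.7% of all). After centring on housekeeping genes it was -0.048, against -0.041 over all probe sets, with 20 above 0 (18.5%, against 33.3%). All GC-1 arrays lay above all vehicle arrays in 7 probe sets (6.48%, against 10.8% of all) and below in 15 (13.9%, against 15.6%), shares under those of the array. The counts turned to 13 and 8 after quantile normalization (12.0% and 7.41%, against 11.8% and 14.1% of all) and to 5 and 37 after housekeeping centring (4.63% and 34.3%, against 6.0% and 22.3%). The comparisons of T3 and of GC-1 share the vehicle arrays, so they are given side by side. For the mean of both ligands against vehicle, 4 of 108 passed (3.70%, against 5.53% of all): CYC1, NDUFA2 and ATP5F1C higher (3, against 3.63%) and NDUFAF4 lower (1, against 1.90%).

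**Figure D1:**
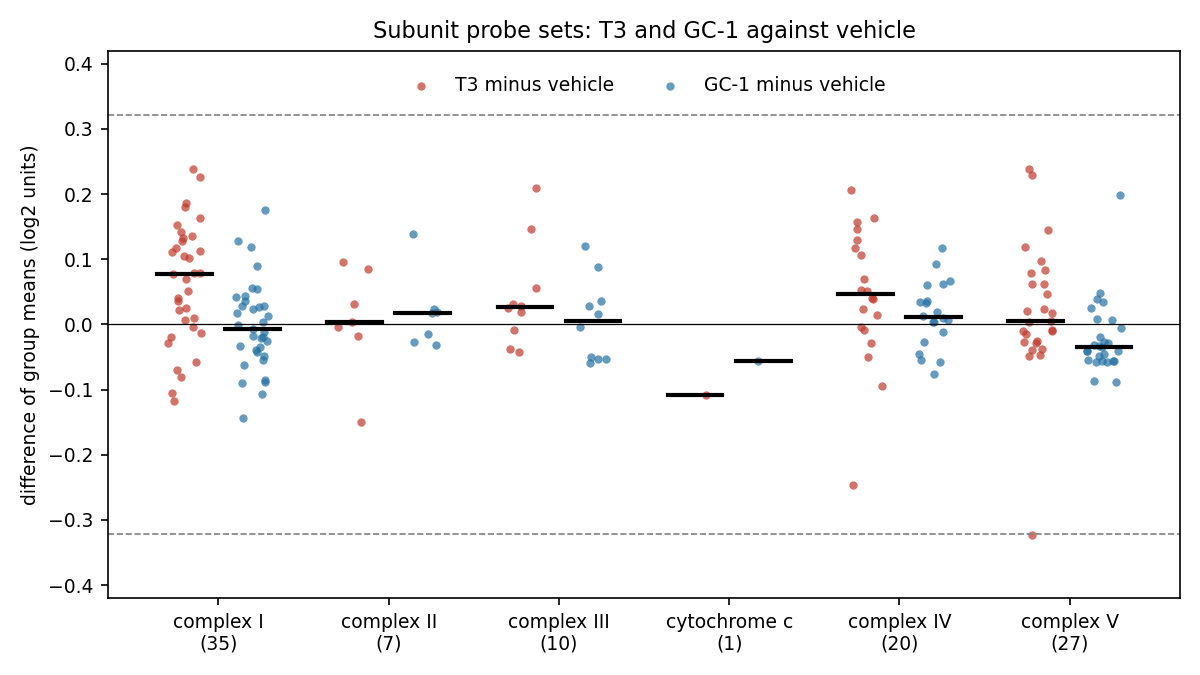
Difference from vehicle in log2 units (vertical axis) of each probe set, by complex with the number of probe sets in parentheses; red points are T3, blue points GC-1, black bars the median and dashed lines a 1.25-fold change. The T3 median of complex I lies at 0.077 and the GC-1 median of complex V at -0.035, and all but 1 of the points, ATP5MC2 at -0.32, lie between the dashed lines.

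Complex I, the largest complex of the chain, had a T3 median of 0.077 log2 units over 35 probe sets, with 26 of them above 0. Without T3 replicate 3 the median was 0.036, below that of complex IV at 0.041. Its GC-1 median was -0.007, and 0.015 after quantile normalization. The 5 measured core subunits, NDUFS1, NDUFS3, NDUFS7, NDUFV1 and NDUFV2, hold the flavin and iron-sulfur centres or build the part next to them. Their T3 means were all above vehicle, by 0.05 to 0.10 and under both other scalings too, and none passed the test. In 0 of the 5 did all T3 arrays lie above all vehicle arrays (against 12.5% of all). The 14 probe sets of NDUFA accessory subunits had a T3 median of 0.055 and the 13 of NDUFB subunits, which belong to the membrane arm, 0.036. Both probe sets of complex I that passed belong to NDUFA subunits.

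NDUFA2, an accessory subunit of the matrix arm, read 11.04, 11.05 and 11.01 with vehicle, 11.23, 11.24 and 11.32 with T3, and 11.14, 11.20 and 11.12 with GC-1 (probe set 209224_s_at). All treated arrays lay above all vehicle arrays, and all GC-1 arrays lay between vehicle and T3. The rise was 0.23 ± 0.050 log2 units (SE, 1.17-fold, n = 3 a group, limma adjusted p = 0.0233) with T3. With GC-1 the difference was 0.12 (adjusted p = 0.266), and for the ligand mean 0.17 (adjusted p = 0.0409). The T3 call was lost when any 1 vehicle array was left out (adjusted p 0.0616 to 0.0969) and with only the T3 and vehicle arrays (adjusted p = 0.061), and that of the ligand mean without any 1 array but T3 replicate 3 (adjusted p 0.0509 to 0.162). The dimmer probe set of the gene (209223_at, mean signal 6.03) differed by 0.04 with T3.

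NDUFA7, another accessory subunit, read 9.25, 9.17 and 9.09 with vehicle, 9.39, 9.33 and 9.51 with T3, and 9.20, 9.12 and 9.15 with GC-1. The T3 arrays lay above all others, while GC-1 and vehicle overlapped. The T3 rise was 0.24 ± 0.061 (SE, 1.18-fold, limma adjusted p = 0.0463), and the GC-1 difference was -0.02 (adjusted p = 0.931). GC-1 minus T3 was -0.26 with a 95% interval of -0.39 to -0.12, and that difference did not pass over all probe sets (adjusted p = 0.197). The T3 call stood close to the threshold and was lost without any 1 of 8 of the 9 arrays (adjusted p 0.0605 to 0.166), the exception being T3 replicate 2. It was also lost after quantile normalization (adjusted p = 0.0953).

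NDUFS4 and NDUFB8 lay just outside the threshold. NDUFS4, an accessory subunit needed for a stable complex, read 9.93, 9.96 and 9.94 with vehicle and 10.12, 10.05 and 10.20 with T3 (0.18, adjusted p = 0.0762), with no overlap. The 3 probe sets of NDUFB8 ran from 0.14 to 0.19 with T3 (adjusted p 0.0996 to 0.171) and from 0.04 to 0.06 with GC-1. At the low end, NDUFB3 differed by -0.12 (adjusted p = 0.195) and NDUFB2 by -0.11 (adjusted p = 0.305), and all T3 arrays lay below all vehicle arrays for both. NDUFS6, a zinc-binding accessory subunit, differed by -0.14 with GC-1 (adjusted p = 0.235) and -0.02 with T3.

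NDUFAF4, which is needed to assemble complex I and is no part of it, was low with both ligands. It read 9.31, 9.35 and 9.35 with vehicle, 9.24, 9.17 and 9.10 with T3, and 9.11, 9.09 and 9.09 with GC-1. Every treated array lay below every vehicle array. It fell by 0.24 log2 units with GC-1 (SE 0.050, limma adjusted p = 0.0282). With T3 the difference was -0.17 (adjusted p = 0.0865), and for the ligand mean it fell by 0.20 (adjusted p = 0.0204). The GC-1 call was lost without any 1 vehicle or GC-1 array (adjusted p 0.0823 to 0.114), and the ligand mean call without any 1 vehicle array or GC-1 replicate 2 (adjusted p 0.0515 to 0.0985). The other 4 assembly factors of this name did not pass with either ligand (NDUFAF1 -0.08 with T3 and -0.13 with GC-1, NDUFAF3 0.06 and -0.07, NDUFAF5 0.09 and 0.03, NDUFAF7 0.18 and -0.05).

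**Figure D2:**
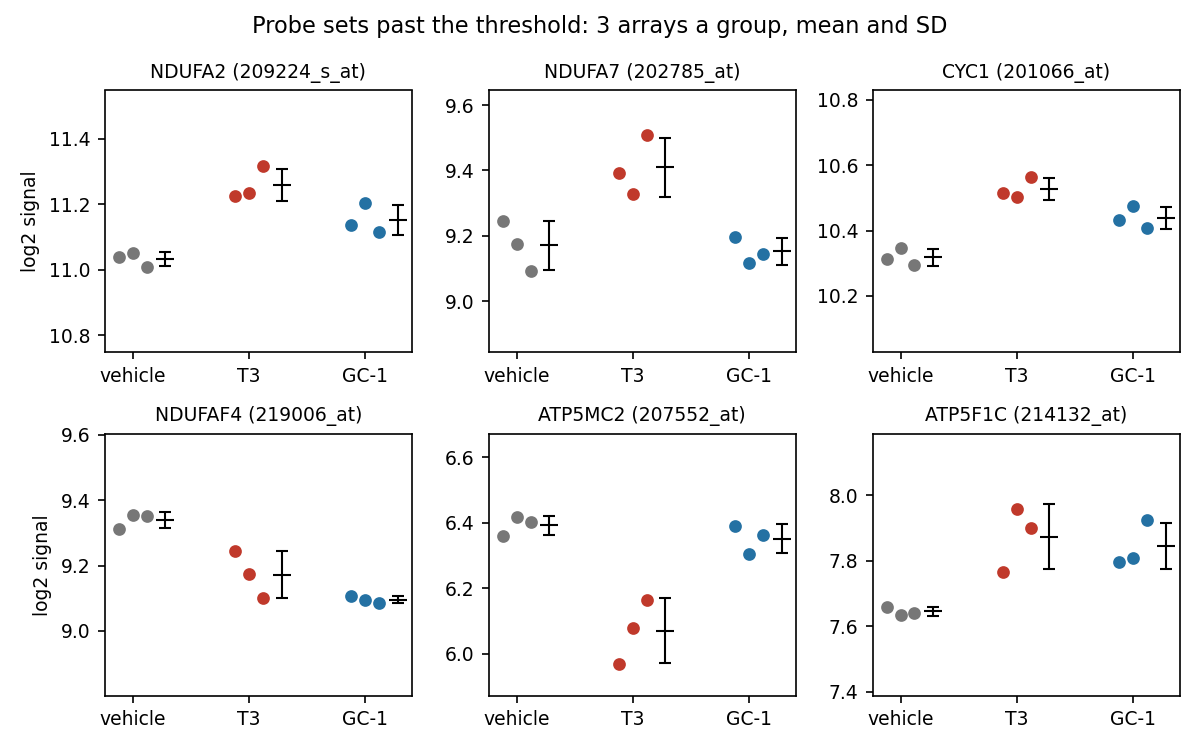
Log2 signal (vertical axis, a separate range in each panel) on the 3 vehicle (grey), 3 T3 (red) and 3 GC-1 (blue) arrays for the 6 probe sets past the threshold in any comparison, with the group mean and SD beside the points. NDUFA2, CYC1 and ATP5F1C have all treated arrays above vehicle, NDUFAF4 has all of them below, NDUFA7 is high with T3 alone and the dim ATP5MC2 probe set is low with T3 alone.

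Complex II, succinate dehydrogenase, is the only one of the complexes that also works in the citric acid cycle. None of its 7 probe sets passed in limma, against 5.50% of all probe sets with T3 and 2.80% with GC-1. None had an unadjusted p under 0.05 (against 21.1% and 15.9%), and 0 passed with the trended robust prior (against 8.81% and 6.06%). In none did a treated group clear the range of the vehicle arrays. Of all probe sets 12.5% lay wholly above vehicle with T3 and 12.4% below, and 10.8% and 15.6% with GC-1. With 7 probe sets, counts of 0 say little. SDHA, the flavoprotein that oxidizes succinate, read 10.22, 10.14 and 10.11 with vehicle, 10.28, 10.22 and 10.27 with T3, and 10.16, 10.20 and 10.17 with GC-1 (T3 0.10, adjusted p = 0.295; GC-1 0.02). The membrane anchors differed less in their brightest probe sets, SDHC by 0.03 and SDHD by 0.00 with T3 and each by 0.02 with GC-1. The complex II median with T3, 0.004, turned to -0.021 after quantile normalization and to -0.034 without T3 replicate 3, so it had no settled direction.

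In complex III, CYC1 rose and its neighbours moved less. CYC1 is cytochrome c1, the heme subunit that hands electrons to cytochrome c. It read 10.31, 10.35 and 10.30 with vehicle, 10.51, 10.50 and 10.57 with T3, and 10.43, 10.47 and 10.41 with GC-1. As with NDUFA2, the 3 groups did not overlap and GC-1 lay between. CYC1 rose by 0.21 ± 0.047 (SE, 1.16-fold, limma adjusted p = 0.0259) with T3, and the GC-1 difference was 0.12 (adjusted p = 0.234). For the ligand mean the rise was 0.16 (adjusted p = 0.0395). The T3 call was lost after quantile normalization (adjusted p = 0.0519), with only the T3 and vehicle arrays (adjusted p = 0.0728) and without any 1 vehicle array or T3 replicate 1 (adjusted p 0.0600 to 0.105), and that of the ligand mean without any 1 of 7 arrays, the exceptions being T3 replicates 2 and 3 (adjusted p 0.0597 to 0.159).

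UQCRC1, a core protein of complex III, read 11.31, 11.30 and 11.24 with vehicle, 11.40, 11.36 and 11.53 with T3, and 11.43, 11.38 and 11.31 with GC-1. All T3 arrays lay above vehicle, and the difference of 0.15 did not pass (adjusted p = 0.176; GC-1 0.09). UQCRC2, the other core protein, differed by -0.01 with T3 and the small subunit UQCR10 by -0.04. Over the 10 probe sets of the complex the T3 median was 0.027, with 7 above 0, and it was 0.006 after quantile normalization and 0.004 without T3 replicate 3. The GC-1 median was 0.006, or -0.031 after housekeeping centring. CYCS, the soluble cytochrome c that carries electrons to complex IV, lay low instead: 12.42, 12.45 and 12.46 with vehicle, 12.35, 12.33 and 12.32 with T3, and 12.39, 12.36 and 12.40 with GC-1. All treated arrays of CYCS lay below all vehicle arrays, by 0.11 with T3 (adjusted p = 0.192) and 0.06 with GC-1 (adjusted p = 0.603).

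Complex IV, cytochrome c oxidase, had no probe set past the limma threshold (against 5.50% of all with T3 and 2.80% with GC-1). At an unadjusted p under 0.05 there were 6 of 20 with T3 (against 21.1% of all probe sets) and 0 with GC-1 (against 15.9%). With the trended robust prior 4 passed with T3 (against 8.81% of all), COX5A and 3 of COX5B. The T3 median was 0.046 over 20 probe sets, with 14 above 0, and the GC-1 median 0.011, or -0.026 after housekeeping centring. COX5B and COX5A, nuclear subunits on the matrix side, were the highest genes. The 4 probe sets of COX5B ran from 0.13 to 0.21 with T3 (adjusted p 0.102 to 0.215) and from 0.06 to 0.09 with GC-1. In its brightest probe set COX5B read 12.28, 12.24 and 12.23 with vehicle, 12.34, 12.31 and 12.48 with T3, and 12.28, 12.35 and 12.31 with GC-1. All T3 arrays were above vehicle and T3 replicate 3 was the highest of them. COX5A differed by 0.15 with T3 (adjusted p = 0.152) and by 0.04 with GC-1.

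Several complex IV subunits exist as a general form and a form known from muscle or other tissues. The general forms differed by little with T3: COX4I1 by 0.05, COX6A1 by 0.04, COX6B1 by 0.05, COX7A2 by -0.01 and COX8A by 0.11. COX7A1, a muscle form, was dim (mean signal 5.13) and differed by -0.03. COX6A2, the muscle form of the subunit that COX6A1 supplies in liver, was also dim and read 6.03, 6.16 and 6.16 with vehicle, 6.01, 5.99 and 5.61 with T3, and 6.13, 6.30 and 6.26 with GC-1. Its T3 difference of -0.25 (adjusted p = 0.180) stood beside 1 low array, T3 replicate 3, and its GC-1 difference was 0.12. COX7A2L, which helps join complexes III and IV, differed by -0.05 with both ligands.

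In complex V the catalytic subunits stayed near vehicle, and the 2 probe sets past the threshold in any comparison, of ATP5MC2 and ATP5F1C, were the dim ones of their genes. The T3 median over 27 probe sets was 0.005, with 15 above 0. The GC-1 median was -0.035, with 20 below 0. ATP5F1A and ATP5F1B, the alpha and beta subunits of the catalytic head, differed by 0.00 and 0.08 with T3 and by -0.02 and 0.05 with GC-1. By position in the enzyme, the T3 median was 0.0033 in the head with its central stalk (9 probe sets), 0.024 in the c ring (5), 0.062 in the peripheral stalk (5) and -0.033 in the accessory subunits of the membrane part (8). Of the last 8, which belong to ATP5ME, ATP5MG and ATP5MJ, 2 were above 0 with T3 and 6 were after housekeeping centring. With GC-1 the means of all 8 lay below vehicle, by 0.03 to 0.09 and under both other scalings too, and none passed the test. All GC-1 arrays lay below all vehicle arrays in 2 of the 8 (against 15.6% of all).

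ATP5MC2, 1 of 3 genes for the identical mature c subunit of the rotor ring, gave opposite answers from its 2 probe sets. The dim one (207552_at, mean signal 6.27) read 6.36, 6.42 and 6.40 with vehicle, 5.97, 6.08 and 6.16 with T3, and 6.39, 6.30 and 6.36 with GC-1. It fell by 0.32 with T3 (SE 0.058, limma adjusted p = 0.00757) and kept that call without any 1 array (adjusted p 0.00431 to 0.0375), while with the arrays' interquartile range as a covariate it did not pass (adjusted p = 0.0721). Its GC-1 difference was -0.04 (adjusted p = 0.805). The bright one (208764_s_at, mean signal 11.35) read 11.34, 11.34 and 11.28 with vehicle and 11.39, 11.38 and 11.54 with T3. All its T3 arrays lay above vehicle, by 0.12 (adjusted p = 0.254). The pseudogene ATP5MC2P1, a copy of this gene, was also dim and differed by 0.31 with T3 (adjusted p = 0.113), and probes of near-identical copies can share signal. The direction of ATP5MC2 with T3 is therefore uncertain.

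ATP5F1C, the gamma subunit that forms the turning shaft of the enzyme, was split in the same manner. Its 3 bright probe sets, of a type that can bind several transcripts, differed by -0.03 to -0.01 with T3 and by -0.04 to -0.03 with GC-1. The dim one (214132_at) read 7.66, 7.64 and 7.64 with vehicle, 7.77, 7.96 and 7.90 with T3, and 7.80, 7.81 and 7.93 with GC-1. Here every treated array lay above vehicle, and the ligand mean rose by 0.21 (adjusted p = 0.0380), with 0.23 for T3 (adjusted p = 0.0520) and 0.20 for GC-1 (adjusted p = 0.124). That call was lost without any 1 of 8 of the 9 arrays (adjusted p 0.0508 to 0.137), the exception being T3 replicate 1.

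ATP5F1D, the delta subunit of the central stalk, was the first probe set outside the T3 threshold. It read 9.62, 9.60 and 9.45 with vehicle, 9.74, 9.78 and 9.87 with T3, and 9.55, 9.67 and 9.58 with GC-1. All T3 arrays lay above all vehicle arrays (0.24, adjusted p = 0.0501), while GC-1 overlapped vehicle (0.04), and its second probe set differed by 0.14 with T3. The lowest genes of the complex with T3 in their brightest probe sets were ATP5MG (-0.05) and ATP5MJ (-0.04). ATP5IF1, which blocks the enzyme when it would run backwards, read 9.79, 9.63 and 9.72 with vehicle, 9.84, 9.78 and 9.95 with T3, and 9.70, 9.78 and 9.71 with GC-1. T3 and vehicle overlapped for it (0.14, adjusted p = 0.211; GC-1 0.02).

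**Figure D3:**
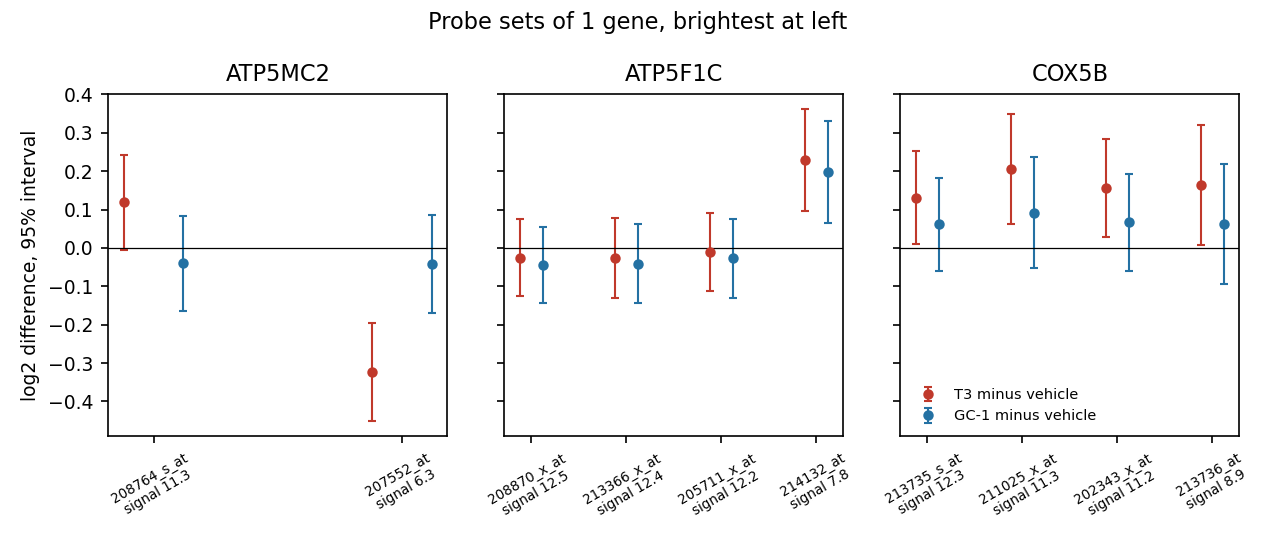
T3 (red) and GC-1 (blue) differences from vehicle in log2 units with 95% intervals (vertical axis) for each probe set of ATP5MC2, ATP5F1C and COX5B, brightest at the left with its mean signal under it. The dim probe sets of ATP5MC2 (-0.32) and ATP5F1C (0.23) part from the bright ones with T3, while the 4 of COX5B lie together between 0.13 and 0.21.

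Disagreement between probe sets was a limit for several of the 21 genes that had more than 1. The T3 differences spanned -0.09 to 0.12 for COX4I1, -0.06 to 0.14 for NDUFA5 and -0.15 to 0.00 for SDHD. The dimmest probe set gave the lowest value for COX4I1 and SDHD and the highest for NDUFA5. They lay close together for NDUFB8 (0.14 to 0.19), ATP5PO (0.08 to 0.10), ATP5MC3 (0.02 to 0.05) and NDUFB2 (-0.11 to -0.08). When the probe sets of a gene were averaged before the test, 5 of 75 genes rose with T3 (6.67%, against 7.31% of all genes called): CYC1 (0.21, adjusted p = 0.0116), NDUFB8 (0.16, adjusted p = 0.0392), NDUFA7 (0.24, adjusted p = 0.0312), ATP5F1D (0.19, adjusted p = 0.0499) and NDUFS4 (0.18, adjusted p = 0.0480). With the brightest probe set standing for its gene 3 rose, CYC1, NDUFA2 and NDUFA7, and NDUFA2 was no longer among them after averaging.

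Set directly against each other at the same dose and time, in the 1 pair of compounds available, GC-1 and T3 differed in no subunit probe set at an adjusted p under 0.05. GC-1 lay below T3 in 90 of 108 (83.3%, against 52.0% of all probe sets and 68.95% of the 1227 bright ones). The median was -0.050, against -0.005 over all and -0.026 over the 1227 bright ones. All GC-1 arrays lay below all T3 arrays in 30 probe sets (27.8%, against 10.1% of all) and above them in 5 (4.63%, against 7.90%). The 5 were CYCS and the dim probe sets of ATP5MC2, COX4I1 and SDHD and that of COX6A2. The medians of complexes I to V were -0.075, -0.010, -0.050, -0.042 and -0.030, and in complex I 30 of 35 were below 0. Their order was not stable: after quantile normalization complex II was at 0.037 and complex V at 0, and without T3 replicate 3 complex II was at 0.033. The direction of the overall median held under each scaling tried, and its size did not: it was -0.022 after quantile normalization (0.001 over all probe sets) and -0.126 after centring on housekeeping genes (-0.082 over all). All GC-1 arrays then lay below all T3 arrays in 10 probe sets (9.26%, against 7.17% of all) and in 59 (54.6%, against 25.9%). They lay above them in 8 (7.41%, against 7.52%) and in 2 (1.85%, against 1.5%). After quantile normalization the GC-1 mean was below T3 in 66 of 108 and above it in 42 (38.9%, against 50.5% of all). After housekeeping centring these were 100 and 8 (7.41%, against 22.8%). Without T3 replicate 3, 2 probe sets passed in this comparison (1.85%, against 1.52% of all). They were the dim ones of ATP5MC2 (0.33, adjusted p = 0.0361) and SDHD (0.37, adjusted p = 0.0401), both higher with GC-1.

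**Figure D4:**
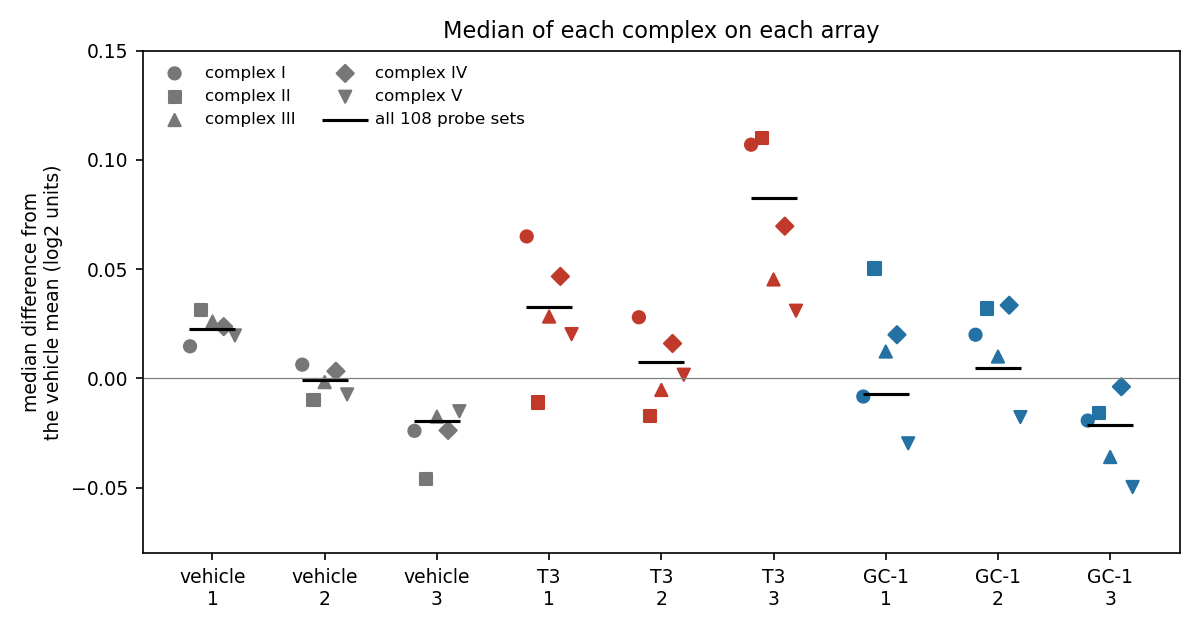
Median difference from the vehicle mean in log2 units (vertical axis) of each complex (marker shapes) and of all 108 probe sets (black bars) on each of the 9 arrays (horizontal axis). T3 replicate 3 has the highest bar, 0.083, with complexes I and II near 0.11, while complex V lies below 0 on all 3 GC-1 arrays.

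The intervals bound how large the changes could be. The 95% interval of the T3 difference lay inside a 1.25-fold change either way for 99 of the 108 probe sets (91.7%, against 80.9% of all and 89.1% of the 1227 bright ones). For the GC-1 difference it was 104 (96.3%, against 85.7% and 90.7%). For GC-1 minus T3 it was 98 (90.7%, against 85.9% and 99.35%), a smaller share than in the 1227 bright ones. All 108 lay inside 1.5-fold in all 3 comparisons. The intervals are for 1 probe set at a time and were not widened for their number, and they bound the RNA signal, not the protein or the activity of the complexes. In bulk RNA, fewer cells that express a gene and less of its RNA per cell cannot be told apart.

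**Figure D5:**
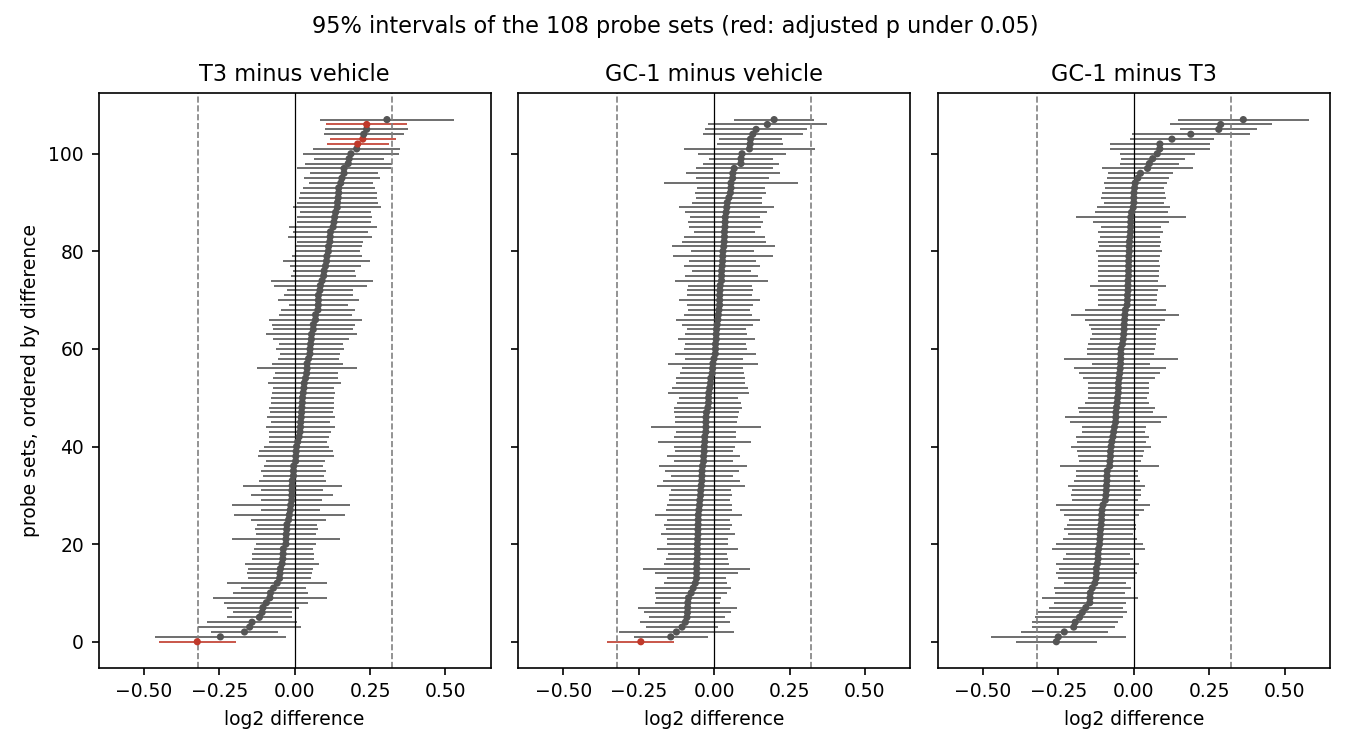
Differences in log2 units (horizontal axis) with 95% intervals for all 108 probe sets, each panel ordered by its own difference, for T3 minus vehicle, GC-1 minus vehicle and GC-1 minus T3; red marks an adjusted p under 0.05 and dashed lines a 1.25-fold change. In the first panel 4 are red and 99 lie inside the lines, in the second 1 and 104, in the third 0 and 98.

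Of 19 measured regulators of mitochondrial transcription and biogenesis, 1 rose with T3 (5.26%, against 4.00% of all probe sets), TFB1M (0.24, adjusted p = 0.0163), which modifies the mitochondrial ribosomal RNA, and its GC-1 difference was 0.07. The call of TFB1M was lost without vehicle replicate 2 or 3 (adjusted p 0.0635 and 0.0703). The median over the 19 regulators was -0.068 with T3 and -0.088 with GC-1. TFAM, which packs and transcribes the mitochondrial genome, fell in the ligand mean (by 0.24, adjusted p = 0.0372), with -0.25 for T3 (adjusted p = 0.0603) and -0.24 for GC-1 (adjusted p = 0.104). That call was lost without any 1 vehicle or GC-1 array (adjusted p 0.0585 to 0.143). The coactivator PPARGC1A differed by 0.14 with T3 and 0.16 with GC-1 (adjusted p 0.219 and 0.256), and its partner receptor ESRRA by 0.02 and 0.07.

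Of 25 measured assembly factors 3 rose with T3 (12.0%, against 4.00% of all probe sets) and none fell. With GC-1 1 rose (4.00%, against 1.81%) and 1, NDUFAF4, fell (4.00%, against 0.986%). OXA1L, which inserts subunits into the inner membrane, rose with both ligands, by 0.27 with T3 (adjusted p = 0.0119) and 0.23 with GC-1 (adjusted p = 0.0418). It read 11.37, 11.43 and 11.41 with vehicle, 11.65, 11.62 and 11.75 with T3, and 11.68, 11.60 and 11.62 with GC-1, so the ligands overlapped above vehicle. TACO1, needed to translate a mitochondrial subunit of complex IV, rose by 0.22 with T3 (adjusted p = 0.0247), and ATPAF2, which assembles the ATP synthase head, by 0.26 (adjusted p = 0.0275). Without vehicle replicate 1 the T3 call of OXA1L was lost (adjusted p = 0.0599), and its GC-1 call was lost without any 1 of 7 of the arrays (adjusted p 0.0560 to 0.165). TACO1 and ATPAF2 each lost theirs without any 1 of 5 arrays (adjusted p 0.0518 to 0.0960 and 0.0507 to 0.106).

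Citrate synthase was the clearest mover next to the chain. Of 11 measured citric acid cycle genes it alone passed. CS read 10.54, 10.58 and 10.58 with vehicle, 11.01, 10.94 and 10.88 with T3, and 10.87, 10.86 and 10.80 with GC-1. Every treated array lay above every vehicle array. It rose by 0.37 with T3 (1.30-fold, adjusted p = 0.00144, kept without any 1 array) and by 0.27 with GC-1 (1.21-fold, adjusted p = 0.0165, lost without any 1 vehicle array or GC-1 replicate 1 or 2, adjusted p 0.0623 to 0.0841).

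None of the 16 measured genes of electron entry and carriers passed with either ligand in limma (against 5.50% of all probe sets with T3 and 2.80% with GC-1). At an unadjusted p under 0.05 there were 3 of 16 with T3 (against 21.1% of all) and 1 with GC-1 (against 15.9%). With the trended robust prior there were 1 (against 8.81%) and 0 (against 6.06%). UCP2, a member of the uncoupling protein family, differed by 0.01 with T3 and -0.14 with GC-1 (adjusted p = 0.205). GPD2, the glycerol phosphate dehydrogenase long used as a thyroid hormone response in liver, was dim (5.01) and differed by 0.06 and 0.11. The ADP and ATP carriers SLC25A4 and SLC25A5 differed by 0.05 and 0.03 with T3. Of 51 mitochondrial ribosomal protein genes 3 rose with T3 (5.88%, against 4.00% of all probe sets), MRPL46 (0.27, adjusted p = 0.00784), MRPL28 (0.23, adjusted p = 0.0152) and MRPS11 (0.22, adjusted p = 0.0308). None passed with GC-1 (against 2.80% of all). With GC-1 16 of 51 had an unadjusted p under 0.05 (against 15.9% of all), of which 2 were higher (against 7.0% of all). With the trended robust prior 4 of 51 passed with GC-1 (against 6.06% of all). In the ligand mean 2 rose (against 3.63% of all) and MRPL3 fell (against 1.90%), by 0.18 (adjusted p = 0.0278). That call was lost without any 1 vehicle or GC-1 array (adjusted p 0.0582 to 0.128). The list medians were 0.0097 with T3 and -0.077 with GC-1, and MRPL46 alone of the 3 kept its T3 call without any 1 array. MRPL28 lost it without vehicle replicate 1 or 3 or T3 replicate 1 (adjusted p 0.0505 to 0.0719) and MRPS11 without any 1 of 6 arrays (adjusted p 0.0524 to 0.112).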

How the data were processed

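HepG2 RNA was hybridized to 9 Affymetrix expression arrays. Each deposited number is the log2 signal of a probe set on an array. The authors made it with RMA (version not given) according to the submitters' processing notes. RMA commonly includes background correction, quantile normalization and summary over probes, and it compresses dim signals, so folds are understated there. The log base was inferred from the values. No scanner files were used, so batches and detection were not examined, and precision is set by the number of arrays. Groups come from the sample titles. No 2 arrays held identical values (0 pairs).

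The 62 control probe sets were left out. The annotation gave 1 symbol for 19064 probe sets, several for 1043 and none for 2108, and only the first were named. All 75 member symbols matched RefSeq by Entrez identifier. limma 3.58.1 in R 4.3.3 (lmFit, eBayes, two-sided) fitted 3 group means over 9 arrays, tested T3, GC-1 and their mean against vehicle and GC-1 against T3, with Benjamini-Hochberg adjustment over 22215 probe sets and a threshold of 0.05. It was tested on simulated data first. A gene is represented by its brightest probe set.

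Named in full were all members past the threshold in any contrast, the 2 highest and 2 lowest genes of each complex with T3, the complex II genes, CYC1, CYCS, ATP5IF1 and the complex IV isoform pairs. NDUFS4, NDUFB8, NDUFS6 and other members were named after their values were seen. The members and the gene lists were chosen with earlier results of these data known. Replicate numbers did not pair the samples: all 9 correlations of same-numbered arrays' deviations lay between -0.262 and 0.075.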

Additional observations from a re-analysis of the deposited data

How the results depend on the processing

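Among the 108 subunit probe sets, no probe set past the threshold changed sign under any alternative run. The number past the threshold with T3 (4) became 18 with a trended, robust prior (8.81% of all probe sets called), 8 without dim probe sets (10.1%, 15551 kept, 5 of the 108 left out), 11 with the arrays' interquartile range as a covariate (9.38%), 1 with only the T3 and vehicle arrays, 10 with T3 replicate 3 as the lone T3 array (8.24%, chosen after seeing the data, its spread taken from the other arrays) and 1 to 6 with 1 array left out; it was 1 without each vehicle replicate in turn. With GC-1 (1) it was 0 to 1 with 1 array left out (1.23% to 5.73% of all), and the 1 left without GC-1 replicate 1 was a dim NDUFB7 probe set. For GC-1 minus T3 (0) it was 0 to 2 (0% to 1.52%). For the ligand mean (4) it was 0 to 4 with 1 array left out (2.62% to 6.32%) and 8 with the trended prior (9.28%). It was 0 centred on housekeeping genes (4.09%) and 7 with the covariate (11.8%). A run with T3 replicate 3 as the lone T3 array was chosen after seeing the data, and only its medians are given. The median T3 difference (0.034) was 0.074 centred on housekeeping genes, 0.086 with the covariate, 0.083 with T3 replicate 3 alone and 0.019 to 0.046 with 1 array left out. The GC-1 median (-0.012) was -0.048 centred on housekeeping genes (-0.041 over all), 0.003 after quantile normalization and -0.022 to -0.001 with 1 array left out. For GC-1 minus T3 (-0.050) it was -0.022, -0.126, -0.082 and -0.085 under quantile normalization, housekeeping centring, the covariate and T3 replicate 3 alone, and -0.069 to -0.034 with 1 array left out. For the ligand mean (0.012) it was 0.041 with T3 replicate 3 alone and 0.004 to 0.024 with 1 array left out. Genes that rose with T3 (3) were 5 with probe sets averaged (7.31% of all genes called). The causes were not tested, beyond the smaller number of probe sets or arrays where an alternative leaves some out.

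With a replicate block, which the numbers do not justify as a pairing, the calls were 1 with T3 (3.48% of all probe sets called) and 0 with GC-1 (1.56%). They were 0 for GC-1 minus T3 (0%) and 0 for the ligand mean (3.35%).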
